A study of Mus musculus with 4 samples.

Results

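The 10 genes described here, Batf, Batf3, Irf4, Irf8, Atf3, Junb, Jund, Fosl1, Fosl2 and Maff, encode BATF proteins, interferon regulatory factors (IRFs) and basic leucine zipper (bZIP) factors of the same binding network. They were chosen by name, with earlier results of these data known, out of 18193 genes with a probe set on the arrays. All 10 were represented, by 15 probe sets in all, and 5 of the genes had more than 1 probe set. Mouse effector Th cells had been sorted on surface CD30, the product of Tnfrsf8 and a member of the TNF receptor family, and each population was hybridized to 1 Affymetrix whole-genome array.

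The 4 populations were CD30high Th17, CD30low Th17, CD30high Th1 and CD30low Th1 cells, and each comparison asked which genes differed between the gates or between the lineages. All came from CD4 T cells of the spleen, naive according to the methods, after 6 days of culture. By the methods the mice were 6 to 12 weeks old. Th17 cultures held IL-6, IL-1beta and IL-23 at 10 ng/ml each, with antibodies to IL-4 and IFN-gamma at 10 µg/ml each. Th1 cultures held IL-2 at 30 U/ml, IL-12 at 100 U/ml and anti-IL-4 at 1 µg/ml. By the methods the T cells carried a transgenic receptor for ovalbumin, of DO11.10 or OTII mice, and were stimulated with its peptide and irradiated splenocytes depleted of T cells. Which of these strains served for the arrays, and how many animals were used or pooled, is not given in the sources used here. The labels describe the cells that entered culture as CD44low CD62Lhi for the CD30high populations and as CD44low CD62Llow for the CD30low populations, whereas the methods give a high level of CD62L throughout. If the labels are right, the CD30 gate and the starting population cannot be told apart.

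BATF and BATF3 are small bZIP proteins without a transactivation domain. They pair with JUN proteins at AP-1 sites, and a BATF-JUN dimer can recruit IRF4 or IRF8 to composite elements in which an AP-1 site lies beside a short IRF motif. BATF, IRF4 and JUNB are required for Th17 differentiation in the mouse, and BATF also acts in other effector T cells. BATF3 and IRF8 are best known for the development of type 1 conventional dendritic cells.

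RefSeq promoter windows of assembly GRCm38.p6, from 250 bases before to 50 bases after a transcription start, were available for 9 of the 10 genes, with 12 windows in all. The upstream 250 bases are shown for Batf3, Irf4 and Atf3, the 3 genes that differed most by CD30 gate in Th17 cells, and for Irf8, which ran against the others between lineages. They are written 5′ to 3′ on the strand of the gene, and capitals mark a STAT site (TTCNNNGAA), a TATA box (TATAAA) or the CRE core (TGACG, or CGTCA where it lies on the other strand).
Batf3, chr1:191098164-191098413, plus strand: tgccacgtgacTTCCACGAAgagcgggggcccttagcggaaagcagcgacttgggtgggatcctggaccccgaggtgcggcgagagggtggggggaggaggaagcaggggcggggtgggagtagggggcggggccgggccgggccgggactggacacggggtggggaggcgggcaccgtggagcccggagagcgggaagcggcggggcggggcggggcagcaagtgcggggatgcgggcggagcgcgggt
Irf4, chr13:30748983-30749232, plus strand: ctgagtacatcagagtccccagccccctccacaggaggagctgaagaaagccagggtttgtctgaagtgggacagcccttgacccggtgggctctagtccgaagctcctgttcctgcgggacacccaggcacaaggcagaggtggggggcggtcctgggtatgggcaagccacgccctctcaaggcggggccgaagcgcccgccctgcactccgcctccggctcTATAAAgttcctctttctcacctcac
Atf3, chr1:191183334-191183583, minus strand: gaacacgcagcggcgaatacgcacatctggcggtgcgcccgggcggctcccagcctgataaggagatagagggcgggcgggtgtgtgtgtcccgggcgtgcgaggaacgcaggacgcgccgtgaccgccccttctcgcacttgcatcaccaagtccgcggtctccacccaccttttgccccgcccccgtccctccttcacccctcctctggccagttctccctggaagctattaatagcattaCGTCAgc
Irf8, chr8:120736108-120736357, plus strand: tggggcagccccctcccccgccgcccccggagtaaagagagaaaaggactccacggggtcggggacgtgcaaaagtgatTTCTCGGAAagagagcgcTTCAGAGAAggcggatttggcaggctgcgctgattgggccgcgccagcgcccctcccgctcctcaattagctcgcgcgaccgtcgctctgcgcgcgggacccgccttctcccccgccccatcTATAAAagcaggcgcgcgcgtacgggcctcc
The Batf3 window was 76% G and C, the richest of these 4, and held a STAT site from position -239 to -231, counted from the start with upstream bases negative. In the Irf4 window a TATA box lay from -26 to -21. Atf3 had the CRE core from -7 to -3. Irf8 had 2 STAT sites, from -171 to -163 and from -153 to -145, and a TATA box from -31 to -26.

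An AP-1 site (TGANTCA, searched on both strands like every motif here) was in none of the 12 windows, against 7.81% of 32851 mouse promoter windows of the same length. Neither form of the AP-1 and IRF composite element was in any of the 12. The spaced form, TTTC followed after 4 bases by the AP-1 site, was in 0.119% of all windows, and the adjoining form, GAAA directly before the AP-1 site, was in 0.125%. An IRF element (GAAA, 2 bases, GAAA) was in the window of Fosl2 and in 3.44% of all windows. A full CRE site (TGACGTCA) was in 1 window of Maff and in 1.79% of all. The motif TGCTGA, part of the MARE element bound by MAF proteins, was in the second window of Irf8 and in 19.5% of all. A STAT site was in 3 member windows, of Batf3, Irf8 and Maff, and in 8.30% of all. The TATA box letters were in 3, of Irf4, Irf8 and Junb, and in 13.6% of all. The match of Junb lay from position 1 to 6, at the transcription start and not upstream of it. The CRE core, which is contained in the full site, was in 5 windows of 4 genes, namely Batf, Atf3, Junb and Maff, and in 20.8% of all. The STAT, TATA and CRE core motifs were chosen after expression values had been seen, and a match describes letters only.

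With 1 array per group no difference has a replicate error or a p-value. The fold rule used below called a gene higher or lower for a difference of 2-fold or more that included a signal of 300 or more, with signals below 100 set to 100. The spread between probe sets of the same gene on the same arrays was the only one that could be measured. It leaves out variation between arrays, sorts, cultures and animals, and so does not show how repeatable a difference is. Per probe set, the SD of such log2 ratios was 0.20 for the CD30 comparison in Th17 cells and 0.24 for that in Th1 cells. It was 0.33 between CD30high Th17 and Th1 cells and 0.30 between the CD30low populations. Signals are linear array intensities and cannot be set against those of another gene. A sum over marker genes, as given below, is weighted towards the brightest of them and can be compared between arrays only. In sorted populations, fewer cells expressing a gene and less RNA per cell cannot be told apart.

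Of the 10 genes, 8 reached a signal of 300 on at least 1 array, and 7 did so on all 4. Fosl1, an AP-1 partner of the FOS family, was below 100 on every array, at 31.5 in CD30high Th17, 51.8 in CD30low Th17, 69.2 in CD30high Th1 and 50.3 in CD30low Th1 cells. No ratio was drawn from Fosl1, so 9 genes were measured. The second probe sets of Fosl1 and Jund were also under 100 on every array, and that of Fosl2 exceeded 100 in CD30high Th17 cells alone, at 151.

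**Figure D1:**
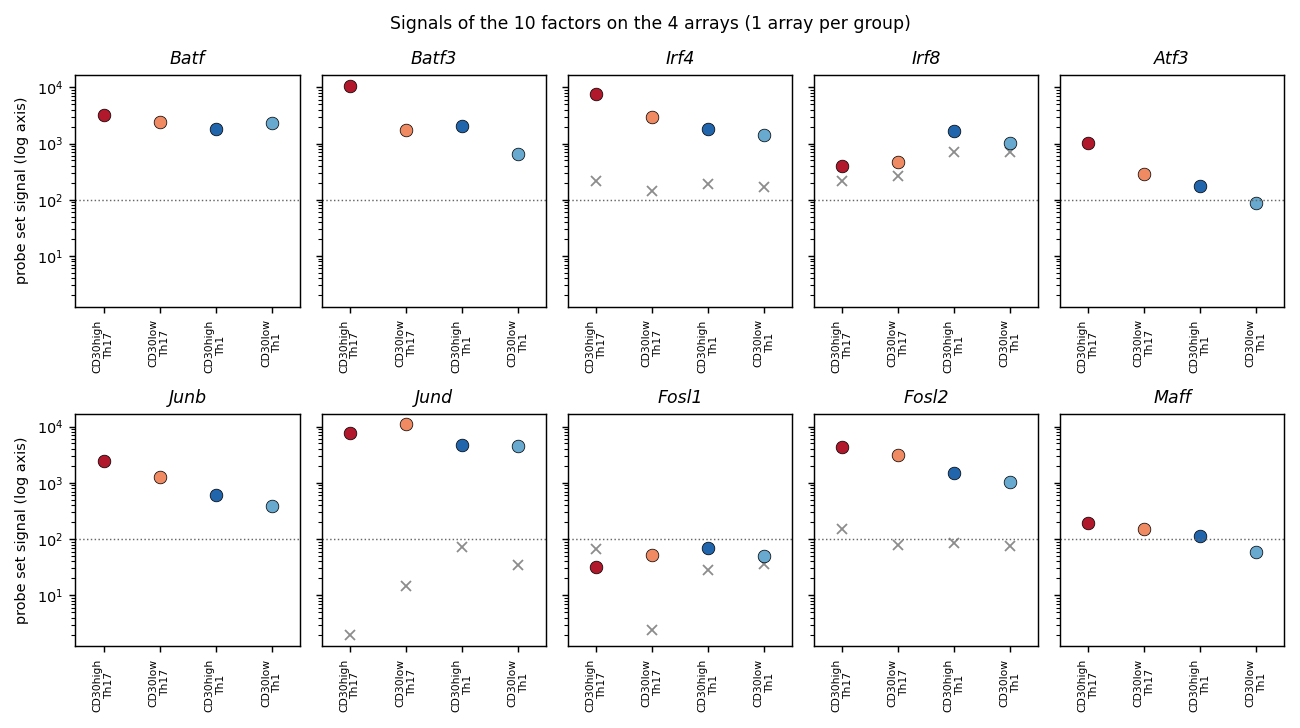
Signal of each of the 10 genes (log axis, linear array intensity) in CD30high Th17, CD30low Th17, CD30high Th1 and CD30low Th1 cells, 1 array each. Circles are the brightest probe set of a gene, grey crosses its other probe sets and the dotted line the floor of 100; Batf3 reaches 10567 in CD30high Th17 cells, while Fosl1 stays below the line throughout.

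Batf3 had the widest span among the 10 genes. Its signal was 10567 in CD30high Th17 cells, 1718 in CD30low Th17 cells, 2044.5 in CD30high Th1 cells and 641 in CD30low Th1 cells. The CD30high population was thus the brighter in both lineages, and the highest and lowest arrays were 16.5-fold apart, the 49th widest span among 8227 genes that reached 300 on any array. In Th17 cells Batf3 was 6.15-fold higher in the CD30high gate (log2 ratio 2.62), place 16 from the top of 7786 genes. In Th1 cells the difference was 3.19-fold (log2 ratio 1.67), place 8 of 7813. Between lineages, Batf3 was 5.17-fold higher in CD30high Th17 than in CD30high Th1 cells, and 2.68-fold higher in CD30low Th17 than in CD30low Th1 cells.

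Batf, the founding BATF protein and a factor required for IL-17 expression in the mouse, was well above background everywhere and differed little. Its signal was 3266 in CD30high Th17, 2419 in CD30low Th17, 1835 in CD30high Th1 and 2342 in CD30low Th1 cells. The CD30 log2 ratio was 0.43 in Th17 and -0.35 in Th1 cells, neither past the fold rule. The CD30low populations of both lineages differed by only 1.03-fold, and the CD30high populations by 1.78-fold, with Th17 cells above Th1 cells.

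Irf4, which is induced by T cell receptor signals and binds with BATF-JUN dimers, was brightest in CD30high Th17 cells. Its main probe set gave 7634 in CD30high Th17, 2929 in CD30low Th17, 1794 in CD30high Th1 and 1433 in CD30low Th1 cells. The CD30 difference was 2.61-fold in Th17 cells (log2 ratio 1.38) and 1.25-fold in Th1 cells (0.32), and only that in Th17 cells passed the rule. The Th17 arrays stood above their Th1 counterparts by 4.26-fold in the CD30high and 2.04-fold in the CD30low gate.

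A second, dimmer probe set of Irf4 gave 212, 145, 193 and 168 on the same arrays in the same order. Its CD30 log2 ratio was 0.55 in Th17 and 0.20 in Th1 cells, and between lineages it was 0.13 in the CD30high and -0.21 in the CD30low gate. With the median of both probe sets, the log2 ratio of Irf4 was 0.96 between the Th17 gates and 0.41 between the CD30low populations, both under the 2-fold limit, and 1.11 between the CD30high populations.

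Irf8, a partner of BATF-JUN dimers like Irf4, ran in the other direction between lineages. Its signal was 399 in CD30high Th17 and 472 in CD30low Th17 cells, against 1641 in CD30high Th1 and 1031 in CD30low Th1 cells. It was 4.11-fold lower in CD30high Th17 than in CD30high Th1 cells (log2 ratio -2.04) and 2.18-fold lower in CD30low Th17 than in CD30low Th1 cells (-1.13). A second probe set gave 214, 261, 711 and 717 and log2 ratios of -1.73 and -1.46 for these comparisons. By CD30 gate the log2 ratio of the main probe set was -0.24 in Th17 and 0.67 in Th1 cells. In Th1 cells the second probe set had a ratio of -0.01, so the higher signal in CD30high Th1 cells rested on 1 probe set.

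Atf3, a stress-induced bZIP factor that can pair with JUN proteins, was detected mainly in CD30high Th17 cells. The signal was 1037 in CD30high Th17, 284 in CD30low Th17, 174 in CD30high Th1 and 87.9 in CD30low Th1 cells. It was 3.65-fold higher in the CD30high gate of Th17 cells, place 82 of 7786. In Th1 cells it was at least 1.74-fold higher in the CD30high gate, with both signals under 300 and so outside the rule. The CD30high Th17 array exceeded the CD30high Th1 array 5.96-fold, place 42 of 7979. The CD30low Th17 array exceeded the CD30low Th1 array at least 2.84-fold, also below the signal limit.

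Junb, the JUN partner that with BATF occupies Th17 loci in the mouse, was ordered like Atf3 and Irf4. It gave 2486 in CD30high Th17, 1266 in CD30low Th17, 607 in CD30high Th1 and 384 in CD30low Th1 cells. By CD30 gate it was 1.96-fold higher in Th17 cells, just short of the 2-fold limit, and 1.58-fold higher in Th1 cells. By lineage it was 4.10-fold higher in Th17 cells in the CD30high gate and 3.30-fold in the CD30low gate.

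Jund, a JUN protein found in most resting cells, was bright on every array and brightest in CD30low Th17 cells. Its signal was 7834 in CD30high Th17 and 10933 in CD30low Th17 cells, against 4712 in CD30high Th1 and 4538 in CD30low Th1 cells. The CD30 log2 ratio was -0.48 in Th17 and 0.05 in Th1 cells, neither past the rule, and that in Th1 cells was -0.18 once each array was centred on its median. Between lineages Jund was 2.41-fold higher in CD30low Th17 than in CD30low Th1 cells, and 1.66-fold higher in CD30high Th17 than in CD30high Th1 cells.

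Fosl2, a FOS family partner known to restrain parts of the Th17 program in the mouse, separated the lineages in both gates. It gave 4267 in CD30high Th17, 3183 in CD30low Th17, 1498 in CD30high Th1 and 1014 in CD30low Th1 cells. It was 2.85-fold higher in CD30high Th17 than in CD30high Th1 cells and 3.14-fold higher in CD30low Th17 than in CD30low Th1 cells. The CD30 differences were 1.34-fold in Th17 and 1.48-fold in Th1 cells, higher in the CD30high gate in both but inside the 2-fold limit.

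Maff, a small MAF protein that lacks a transactivation domain, was dim. Its signal was 194 in CD30high Th17, 152 in CD30low Th17, 114 in CD30high Th1 and 59.0 in CD30low Th1 cells, in the order of Fosl2 and Junb. No array reached the signal limit, so the fold rule could not be applied to it.

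In the CD30 comparison in Th17 cells, 3 of the 8 genes at the signal limit passed the rule as higher in CD30high cells, Batf3, Irf4 and Atf3, and 0 as lower. Among all 7786 genes at the limit, 3.94% were higher and 3.66% lower. The median log2 ratio of the 9 measured genes was 0.43, with 7 above and 2 below 0, beside a median of 0.02 over all measured genes. In Th1 cells 1 of 7 passed as higher, Batf3, and 0 as lower, beside 0.794% higher and 0.486% lower of 7813 genes. The median there was 0.56, with 8 of 9 above 0, beside 0.000299 over all genes. Under the other scalings, floors and probe set rules the median ran from 0.32 to 0.66 in Th1 cells and from 0.38 to 0.51 in Th17 cells. Relative to the median of all genes, these counts above and below were the same after median centring of the arrays.

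**Figure D2:**
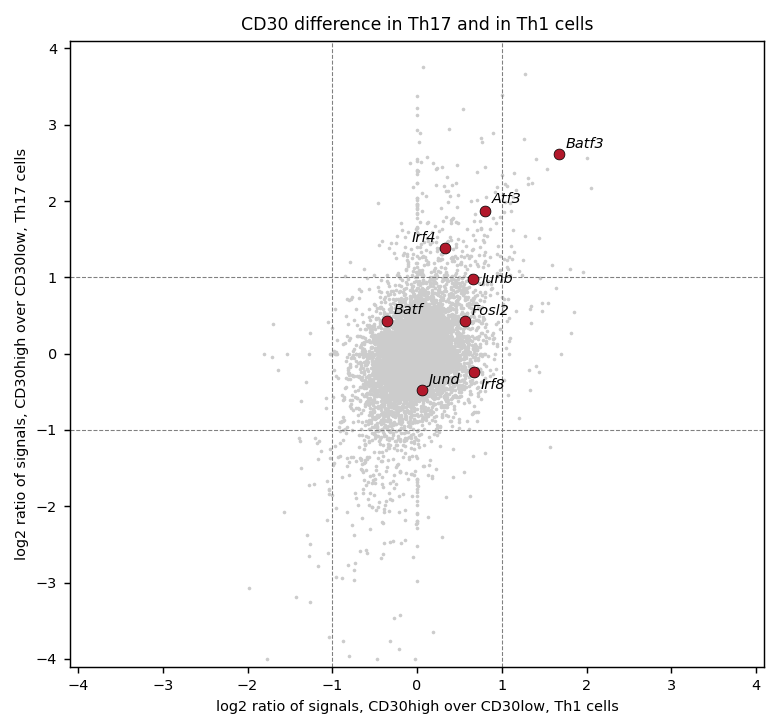
Log2 ratio of CD30high to CD30low signals in Th17 cells (vertical axis) and in Th1 cells (horizontal axis). The 8 genes at the signal limit are named, and other genes at the limit in either comparison are grey points. Values beyond 4 are drawn at the edge. Batf3 lies far out on both axes, at 2.62 and 1.67, while Atf3 and Irf4 lie above 1 on the Th17 axis alone.

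Both lineages could be compared gene by gene, since no array was shared by the CD30 comparisons. Of 7372 genes at the signal limit in both lineages, 27 were higher in the CD30high gate in both and 22 lower in both. Batf3 was the 1 member among the 27, in place 3 by its smaller ratio, and 0 members were among the 22. The CD30 log2 ratio in Th17 minus that in Th1 cells was 1.07 for Atf3, 1.06 for Irf4, 0.95 for Batf3, 0.79 for Batf and -0.91 for Irf8. An absolute difference of 1 or more was reached by 2 of 8 genes in the positive direction, Irf4 and Atf3, and by 0 in the negative, beside 3.18% and 3.4% of 8227 genes. The SD per probe set of this difference was 0.32, a spread between probe sets of the same arrays, and no replicate was available to test the difference. Irf4 fell to 0.70 with the median of its probe sets. For Atf3, whose CD30low Th1 signal is under the floor, the difference was 0.89 with a floor of 50.

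In the CD30high gate 5 of 8 genes at the limit were higher in Th17 than in Th1 cells, Batf3, Irf4, Atf3, Junb and Fosl2, and 1 was lower, Irf8. Of all 7979 genes 4.98% were higher and 6.86% lower. In the CD30low gate 5 of 7 were higher, Batf3, Irf4, Junb, Jund and Fosl2, and Irf8 was again the 1 gene lower, beside 3.53% higher and 5.83% lower of 7857 genes. The median log2 ratio of the 9 measured genes was 1.51 in the CD30high and 1.27 in the CD30low gate, beside -0.01 and -0.02 over all genes.

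**Figure D3:**
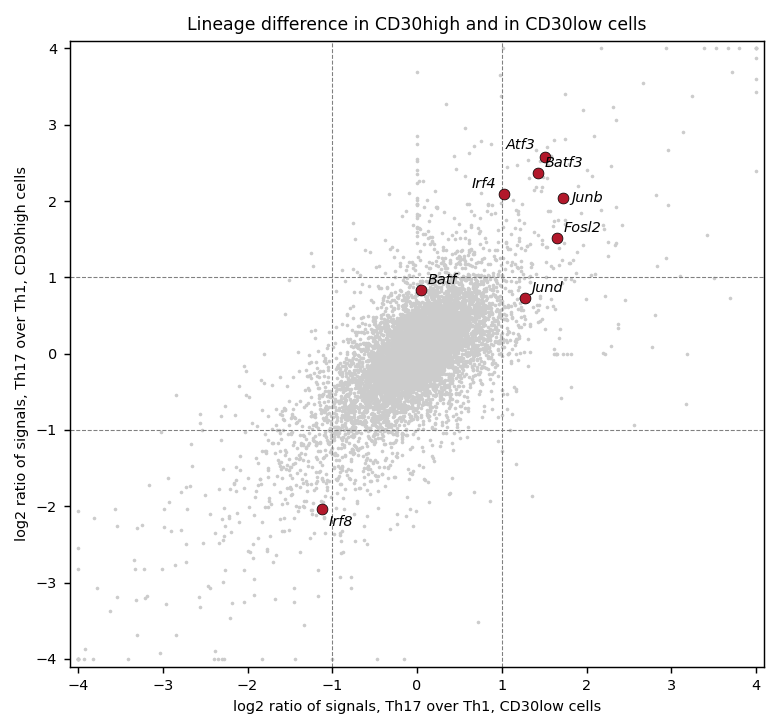
Log2 ratio of Th17 to Th1 signals among CD30high cells (vertical axis) and among CD30low cells (horizontal axis), 1 array per group. The 8 genes at the signal limit are named, and other genes at the limit in either comparison are in grey. Values beyond 4 are drawn at the edge. Junb and Fosl2 lie above 1 on both axes, Irf8 lies below -1 on both, and Batf is at 0.83 and 0.05.

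Sex-linked genes also differed between the lineages. The 3 Y-linked genes measured were below 100 in both Th17 populations and at 300 or more in both Th1 populations. Xist, which is expressed from the inactive X chromosome, was bright on every array, at 22613 in CD30high Th17 and 22350 in CD30low Th17 cells, against 16222 in CD30high Th1 and 14620.4 in CD30low Th1 cells. The Th1 arrays thus held signal of both kinds, and the sex composition of the source animals and the lineage cannot be told apart here. Helper T cell markers were at 300 or more on every array for all 5 genes named, and Tbx21, the Th1 factor, was at 243 in CD30high Th17 and 281 in CD30low Th17 cells, against 2352 in CD30high Th1 and 2190 in CD30low Th1 cells. Tnfrsf8 itself gave 132 in CD30high Th17, 34.9 in CD30low Th17, 51.1 in CD30high Th1 and 13.3 in CD30low Th1 cells. Only the CD30high Th17 array exceeded 100, so the probe set gives no order of the Th1 gates.

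Since BATF3 and IRF8 are known from dendritic cells, the markers of type 1 dendritic cells were set beside them. Of 6 such markers with a probe set, 5 were under 100 on all 4 arrays. Wdfy4 was the exception, at 229 in CD30high Th17 and 84.1 in CD30low Th17 cells. The summed signal of the 6 was 428 in CD30high Th17, 257 in CD30low Th17, 262 in CD30high Th1 and 246 in CD30low Th1 cells, and no marker reached 300. Of the B cell and the macrophage markers none reached 300 either, with summed signals of 557, 235, 315 and 215 for B cells and of 522, 362, 439 and 304 for macrophages and monocytes, in the same order of arrays. Of the neutrophil genes, S100a8 and S100a9 were lower in the CD30high gate of Th17 cells, while Mpo and Elane were under 100 on every array. S100a8 was at 1210 in CD30high Th17, 5192 in CD30low Th17, 7.51 in CD30high Th1 and 2.11 in CD30low Th1 cells, and S100a9 at 527, 2017, 18.1 and 3.95 on these arrays. They were the only 2 of 4 neutrophil genes to reach 300, on the Th17 arrays alone. The summed neutrophil signal was 1845 in CD30high Th17, 7273 in CD30low Th17, 177 in CD30high Th1 and 82.0 in CD30low Th1 cells. On the Th17 arrays most of it came from S100a8 and S100a9. The part of such cells in the signals of the 10 genes was not tested.

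Batf3 and Atf3 are neighbours on chromosome 1 in GRCm38.p6, with 1 other protein-coding gene, Fam71a, between them. Fam71a gave at most 5.94 on any array. The genes next to the pair did not pass the rule by CD30 gate, with log2 ratios in Th17 and Th1 cells of 0.45 and 0.29 for Tatdn3, -0.07 and 0.29 for Nsl1, 0.51 and 0.21 for Nenf, and -0.60 and 0.08 for Pacc1.

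Beyond the 10 genes, 39 of 43 listed genes of the AP-1, ATF, MAF, BACH and IRF families and of their partners, such as NFAT factors, had a probe set. In the CD30 comparison in Th17 cells 34 were measured, with a median log2 ratio of -0.18. Of these, 29 reached the signal limit, and 2 passed as higher and 2 as lower, beside 3.94% and 3.66% of all genes. Crem, a cyclic AMP responsive bZIP factor, was at 9320 in CD30high Th17 and 3036 in CD30low Th17 cells (log2 ratio 1.62). Nfil3, a bZIP repressor, was at 5704 and 1831 in the same gates (1.64). Fos, the founding AP-1 partner, was lower at 159 in CD30high Th17 and 842 in CD30low Th17 cells (-2.40), and Nfatc1, a calcium-regulated partner of AP-1, at 693 and 1418 (-1.03), a call that was lost with quantile normalization and with the mean or median of its probe sets. In Th1 cells 0 of 30 passed the rule, with a median of -0.06, beside 0.794% higher and 0.486% lower of all genes. The listed ratios closest to the rule were 0.86 for Nfil3 and 0.82 for Jdp2.

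Among CD30high cells, 1 of 29 wider-list genes at the limit was higher in Th17 than in Th1 cells, Crem (1.82), and 6 were lower. The shares over all genes were 4.98% and 6.86%. The median of the wider list was -0.23. The lowest were Maf (-2.12), Jun (-1.89), Bach1 (-1.86) and Jdp2 (-1.48). Maf, a factor of IL-10 expression, gave 1198 in CD30high Th17 and 960 in CD30low Th17 cells, against 5210 in CD30high Th1 and 4468 in CD30low Th1 cells. Jun gave 529 and 699 in these Th17 arrays, against 1967 and 2350 in these Th1 arrays, so that it ran against Junb between lineages. Among CD30low cells 1 of 30 was higher, Fos (2.78), and 3 were lower, Maf (-2.22), Jun (-1.75) and Bach1 (-1.48), with a median of -0.20. The shares over all genes there were 3.53% higher and 5.83% lower. After median centring of the arrays the wider-list median was 0.19 in the CD30high and 0.01 in the CD30low gate. In both gates it was still below the median of all genes. The 6 measured IRF genes other than Irf4 and Irf8 were all below 0 in both lineage comparisons, with medians of -0.63 in the CD30high and -0.30 in the CD30low gate. With each array centred on its median, 1 of the 6 in the CD30high and 2 in the CD30low gate were above 0, while all 6 stayed below the median of all genes in both. In the CD30 comparison in Th17 cells 5 of those 6 were below 0, with a median of -0.41. Taking the CD30 ratio in Th17 minus that in Th1 cells, 2 of 31 were above 1, Crem (1.79) and Atf6 (1.23), and Fos was below -1 (-2.69). The shares over all genes were 3.18% in the positive and 3.4% in the negative direction.

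A further list held genes known in T cells to depend on BATF or IRF4, and 16 of its 20 had a probe set. In the CD30 comparison in Th17 cells 6 of 11 at the limit were higher and 1 was lower, beside 3.94% and 3.66% of all genes. The median log2 ratio of the 14 measured target genes was 1.00. The largest was Il17a, the signature cytokine of the lineage, at 14443 in CD30high Th17 and 1398 in CD30low Th17 cells (3.37). Il12rb1, a receptor chain shared by IL-12 and IL-23, had a ratio of 1.56, Rora, a nuclear receptor of the Th17 program, of 1.38, and Ccr6, the chemokine receptor of Th17 cells, of 1.29. The remaining genes were Ctla4 (1.23), an inhibitory receptor, and Il2ra (1.01), the IL-2 receptor alpha chain. Il2ra no longer passed with median centring, nor Ccr6 with a floor of 200 or a signal limit of 500. Gzmb, a cytotoxic protease, was lower at 5155 in CD30high Th17 and 28882 in CD30low Th17 cells (-2.49). In Th1 cells 0 of 9 passed, beside 0.794% higher and 0.486% lower of all genes, and the median of 12 target genes was 0.14. After median centring of the arrays that median was -0.10, still above the median of all genes.

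By lineage, 4 of 12 target genes were higher in CD30high Th17 cells, Il17a (7.17), Il21 (4.46), Il2ra (1.38) and Rora (1.10). In the same gate 3 were lower, Gzmb (-3.07), Il10 (-2.38) and Prdm1 (-1.51), with a median of 0.23. The shares over all genes were 4.98% higher and 6.86% lower. In the CD30low gate 2 of 11 target genes were higher, Il21 (4.92) and Il17a (3.80), beside 3.53% of all genes. There 3 were lower, Il10 (-2.28), Prdm1 (-1.60) and Ctla4 (-1.54), beside 5.83% of all genes. The median of the target list was -0.04, and 0.20 after median centring, just below that of all genes in both settings. The ratios of Il17a and Il10 are bounds, since Il17a was under 100 in both Th1 and Il10 in both Th17 populations. Il21, a cytokine that supports Th17 and follicular cells, gave 6316 in CD30high Th17, 3174 in CD30low Th17, 286 in CD30high Th1 and 105 in CD30low Th1 cells. Its order over the arrays was that of Irf4, Junb and Fosl2. For the CD30 ratio in Th17 minus that in Th1 cells, 4 of 12 were above 1 and 1 was below -1, Gzmb (-2.30), with a median of 0.50. The shares over all genes were 3.18% in the positive and 3.4% in the negative direction.

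**Figure D4:**
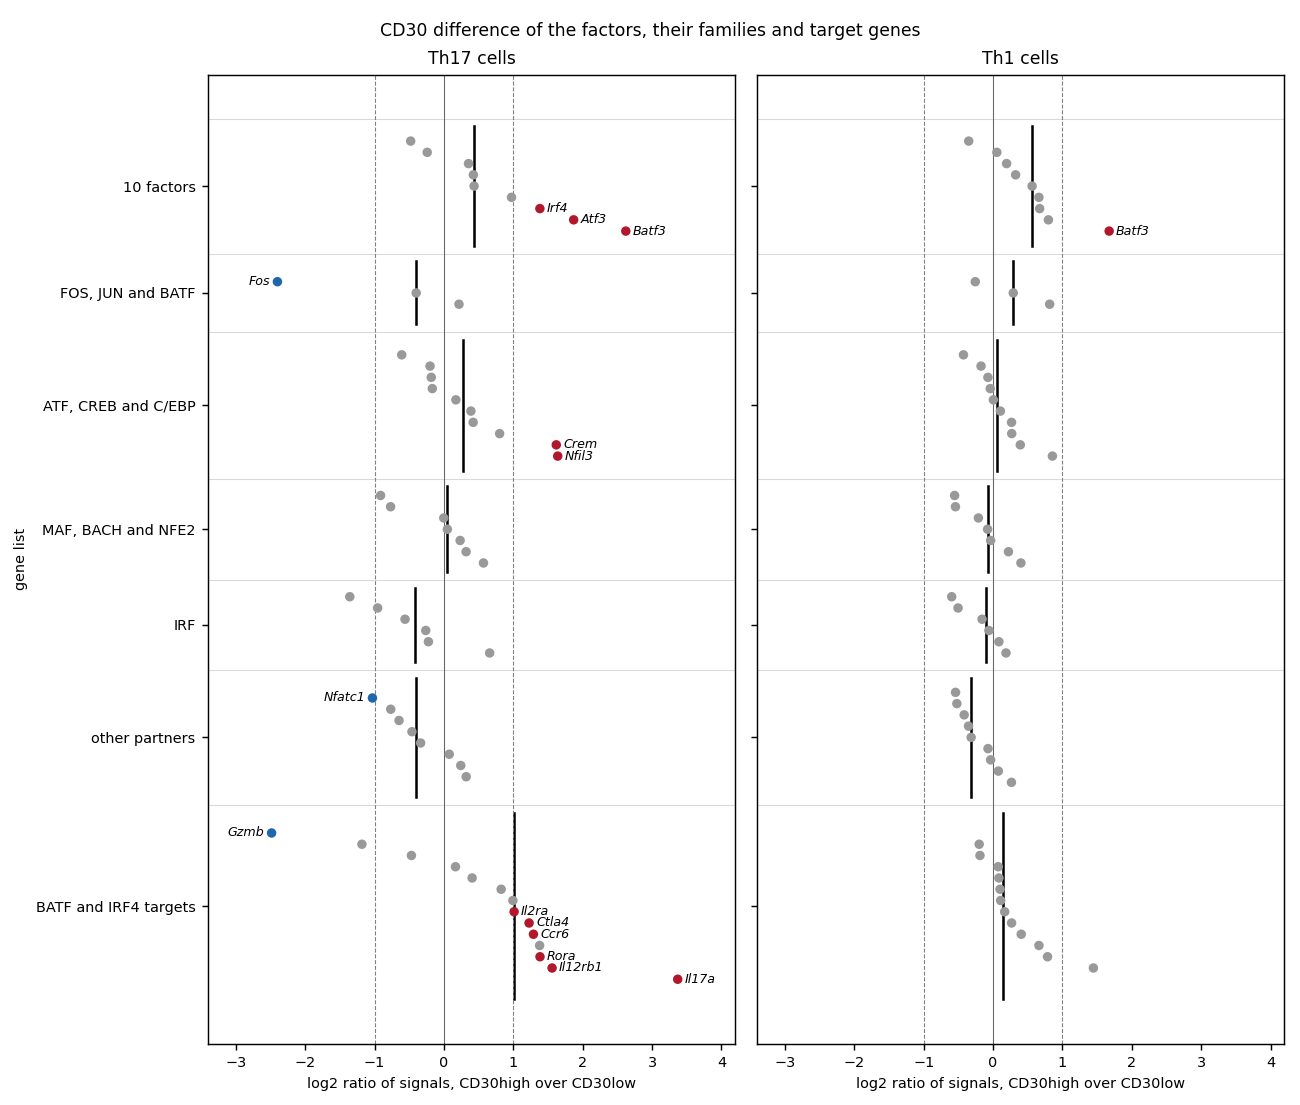
Log2 ratio of CD30high to CD30low signals (horizontal axis) in Th17 (left) and Th1 cells (right) for the 9 measured genes, the wider list by family and the target genes; each point is 1 gene, a black line the median of its group, red and blue the genes past the fold rule as higher and lower. In Th17 cells the medians are 0.43 for the 9 genes and 1.00 for the targets, against 0.56 and 0.14 in Th1 cells, where Batf3 is the only coloured gene.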

How the data were processed

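RNA of 4 sorted populations, CD30high and CD30low Th17 and Th1 cells, was hybridized to 1 Affymetrix mouse array each, and groups were taken from the sample titles. The deposited intensity values were probe set signals on a linear scale. The methods name GeneChip Operating Software as their source, whereas Affymetrix Expression Console is named in the processing notes of the submitters. The version, summary algorithm and target value are not given in the sources used here. Without the lowest and highest 2% the mean was 496.5 to 496.8 on the 4 arrays, as after scaling to 1 target, so a shift of most genes together would be invisible. Median signals were 62.0 to 86.0, and 7394 to 7580 genes reached 300.

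Of 45037 probe sets, 34945 had 1 gene symbol, 932 had several and 9160 had none. Symbols of 34741 were matched to current names, and no gene was named from a probe set with several. The brightest probe set over the 4 arrays stood for each gene, signals below 100 were set to 100, and a gene was measured if either array reached 100. A list was described by its count and median, with no test. No linear model was run, since no group was replicated. The number of arrays limits the precision. The calculation was tested on simulated data. The members and lists were chosen with earlier results of these data known. All 10 members are named, with up to 4 genes per direction and comparison that passed the fold rule in each other list; Ctla4 and Il2ra in the CD30 comparison in Th17 cells, and Nfil3 and Jdp2 in that in Th1 cells, were named after their values were seen. Promoter sequences and gene order came from RefSeq tables (GRCm38.p6). The alternatives were other scalings, floors, fold and signal limits, and rules for several probe sets. The software was pandas 2.3.3 and numpy 2.4.6 under Python 3.11.15, with matplotlib 3.10.9.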

Additional observations from a re-analysis of the deposited data

Results flagged for a closer look

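Batf and Irf8 moved in opposite directions by CD30 gate in the 2 lineages. Batf had a log2 ratio of CD30high to CD30low cells of 0.43 in Th17 and -0.35 in Th1 cells, and Irf8 of -0.24 in Th17 and 0.67 in Th1 cells. With 1 array per group each direction rests on a single pair of arrays, and the difference was not tested. Both genes were inside the 2-fold limit in all these comparisons, and the second probe set of Irf8 gave -0.28 in Th17 and -0.01 in Th1 cells.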

How the results depend on the processing

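No paired analysis was possible because the labels gave no replicate numbers and each group had 1 array, so that no array could be left out either. A fit of the CD30 gate with the lineage as a block would leave 1 residual degree of freedom and was not run. No ratio of a gene among the 10 that was called changed sign under any alternative, and 132 of the counts recomputed stayed within 1.5 times the reported count, with 18 that did not. With a fold limit of 1.5, the CD30 counts became 3 members (Batf3, Irf8 and Junb), 3 wider-list genes and 1 target in Th1 cells, and 11 wider-list genes in Th17 cells. Over all genes 316 were then higher and 279 lower of 7813 in Th1 cells, and 741 and 710 of 7786 in Th17 cells. At that limit the lineage counts became 14 wider-list genes in the CD30high gate, and 8 wider-list genes and 9 targets in the CD30low gate, and the lineage difference in the CD30 ratio held 5 members and 8 wider-list genes. Over all genes 1084 were higher and 1185 lower of 7979 in the CD30high gate, and 921 and 1043 of 7857 in the CD30low gate. For the difference they were 837 and 877 of 8227. With a fold limit of 3, the counts became 2 targets in the CD30 comparison in Th17 cells, 4 wider-list genes and 4 targets between the CD30high populations, 2 members (Junb and Fosl2) between the CD30low populations, and 0 members and 2 targets for the difference. Among all genes 124 were higher and 131 lower of 7786 in that CD30 comparison, and 154 and 261 of 7979 between the CD30high populations. Between the CD30low populations they were 102 and 182 of 7857, and for the difference 86 and 88 of 8227. The difference held 1 member with a floor of 50 (Irf4) and 1 with the median ratio of the probe sets (Atf3). Among all genes the counts were 259 higher and 296 lower of 8227 with that floor, and 217 and 236 of 8234 with the median ratio. With a signal limit of 100, 1 target (Il21) passed in Th1 cells, beside 114 higher and 57 lower of 10351 genes.

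Centring each array on its median moved the median log2 ratio of all genes to -0.03 in the CD30 comparison in Th17 cells, -0.23 in that in Th1 cells, 0.40 between the CD30high populations, 0.21 between the CD30low populations and 0.18 for the difference. The genes past the rule were then 25 higher and 118 lower in Th1 cells (62 and 38 as deposited), 1127 and 288 between the CD30high populations (397 and 547), 558 and 300 between the CD30low populations (277 and 458), and 439 and 190 for the difference (262 and 280). Irf4 fell short of 2-fold between the CD30low populations with quantile normalization (0.998) and with the mean signal of its probe sets (0.94). Irf8 no longer passed between the CD30low populations with median centring, at -0.89, whereas Batf and Jund then passed between the CD30high populations, Atf3 between the CD30low populations and Batf3 for the difference (1.13). Between the CD30high populations Rora lost its call with the mean or median of its probe sets, and Jdp2 with a floor of 200, a signal limit of 500 or the mean of its probe sets. Between the CD30low populations Il10 lost its call with a signal limit of 500. Batf3 passed both CD30 comparisons under all alternatives run. It has 1 probe set and its lowest signal was 641, so only the scalings and the fold limit of 3 could have changed that. With median centring and quantile normalization its CD30 log2 ratios were 2.57 and 2.67 in Th17 cells, and 1.44 and 1.74 in Th1 cells. Signals under 100, as for Fosl1 and Maff, limit what can be said of dim genes.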
